A study of Mus musculus with 16 samples.

Results

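The eukaryotic translation initiation factors are the proteins that bring the initiator tRNA, the small ribosomal subunit and an mRNA together at the start codon. Their genes are described here in mouse liver, from every probe whose annotated symbol starts with Eif and a digit, without the eIF2 kinases (symbols starting Eif2ak). Of the 16593 gene symbols of the array table, 43 met this rule, read by 67 of its 25697 probes. By factor there were 4 genes and 4 probes of Eif1, 8 and 13 of Eif2, 12 and 18 of Eif3, 14 and 23 of Eif4, 4 and 8 of Eif5, and 1 of each for Eif6. Liver RNA of male FVB/NJ mice at 4 weeks of age was read on 7 arrays of Trim28MommeD9/+ mice and 9 arrays of Trim28+/+ mice. MommeD9 is an allele of Trim28 from a chemical mutagenesis screen, with a changed splice site that lowers the dose of Trim28, a co-repressor that recruits silencing complexes to chromatin. Trim28MommeD9/+ mice carry 1 mutant and 1 normal copy in every cell, the Trim28+/+ mice are their wild-type littermates, and both genotypes come from a line kept with a GFP transgene. The methods of the study describe fewer mice than arrays and technical replicates of all samples, and the labels do not say which arrays share a mouse, so p-values over arrays are too small.

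Initiation runs through factors with separate tasks. eIF1 and eIF1A hold the small subunit in a scanning state, eIF2 carries the initiator tRNA and is recharged with GTP by eIF2B, and eIF3 is the large complex on the small subunit that organises the others. The cap of the mRNA is bound by eIF4E, which is joined to the helicase eIF4A by the scaffold eIF4G and is held back by the 4E-binding proteins, while eIF5 and eIF5B end the process with GTP hydrolysis and subunit joining. In liver this machinery serves the heavy output of plasma proteins and is set by nutrients through the kinase mTOR and the eIF2 kinases.

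Beads on the array carry probes for transcripts, and a gene can have several probes or none. Levels are the mean bead intensity of a probe on a log2 scale after background correction and quantile normalization. Probes detected (p under 0.01) on 3 or more of the 16 arrays were kept, and those with a limma adjusted p under 0.05 were called. The arrays showed 9186 to 10262 detected probes, and the mean intensity before normalization was 205 to 270 for Trim28MommeD9/+ and 273 to 344 for Trim28+/+. The authors' background constant puts the arrays in a low set, with all 7 Trim28MommeD9/+ arrays and Trim28+/+ replicate 1, and a high set with the other 8 Trim28+/+ arrays. Background set and genotype can therefore be told apart only through Trim28+/+ replicate 1, and a fit with the sets as a block gives the mean of Trim28MommeD9/+ minus that array. In this fit 3 of all 10291 kept probes were called (1 lower and 2 higher), against 2400 without it. The Trim28 probe was lower in Trim28MommeD9/+ (log2 fold change -0.44, with a standard error, SE, of 0.09, limma adjusted p = 0.00256), although Trim28+/+ replicate 7, at 8.63, lay within the Trim28MommeD9/+ range of 8.53 to 8.76. Most markers of liver cell types were detected, but the probes of Tat, Cd5l and Kdr and the 3 probes of bile duct markers were detected on no array. Of 9 kept hepatocyte probes 2 were lower and 1 higher. Of 5 sinusoidal endothelium probes 1 was lower and 1 higher, and of 5 stellate cell probes 1 was lower and 0 higher. Over all kept probes 12.2% were lower and 11.1% higher. Of 6 kept Kupffer cell probes 3 were higher and 1 was lower. The summed log2 level of all Kupffer cell probes was 10.37 to 10.68 in Trim28MommeD9/+ and 10.10 to 10.43 in Trim28+/+, and its part in the results below was not tested. In whole liver, fewer cells of a type and less RNA per cell cannot be told apart.

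Of the 67 Eif probes, 51 were kept, for 34 genes. Of these 51, 11 were lower in Trim28MommeD9/+ (21.6%), 3 were higher (5.88%) and 37 were not called. Over all kept probes 12.2% were lower and 11.1% were higher, or 23.3% called in all, against 27.5% of the Eif probes. The median log2 fold change was 0.001 over the Eif probes and 0.05 over all kept probes. The 11 lower probes belonged to Eif2d, Eif2s2, Eif2s3x, Eif3a, Eif3c, Eif3i, Eif3k, Eif3l, Eif4enif1, Eif4g2 and Eif5a, and the 3 higher probes to Eif2b5, Eif4a2 and Eif5. By factor, 5 of 11 eIF3 probes were lower, 3 of 12 for Eif2, 2 of 19 for Eif4, 1 of 5 for Eif5 and 0 of 4 for Eif1 and Eif6 together (1 lower at an unadjusted p under 0.05, limma), and the difference between factors was not tested. Called differences ran from 1.65-fold lower (Eif3k) to 1.18-fold higher (Eif2b5). Without Trim28+/+ replicate 1, 13 Eif probes were lower and 5 higher, as were 1443 and 1462 of all 10291 kept probes. With the background sets as a block none was called by limma (0.00972% of all kept probes were lower and 0.0194% higher), and 3 had an unadjusted p under 0.05, all of them lower, as had 732 of all 10291 kept probes in either direction. With arrays that resembled each other treated as presumptive technical pairs, 6 Eif probes were lower and 0 higher (5.28% and 2.63% of all kept probes), those of Eif2d, Eif3c, Eif3i, Eif3k, Eif3l and Eif4enif1, and with a block for the replicate number 5 were lower and 0 higher (5.86% and 2.38%). At an unadjusted p under 0.05 in limma, 5 were higher with the pairs and 2 with the number block. Scaling to the median of all probes moved the median of all kept probes to -0.18 and called 26 Eif probes lower and 0 higher (29 and 0 at an unadjusted p under 0.05, limma), where 34.2% of all kept probes were lower and 0.486% higher.

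**Figure D1:**
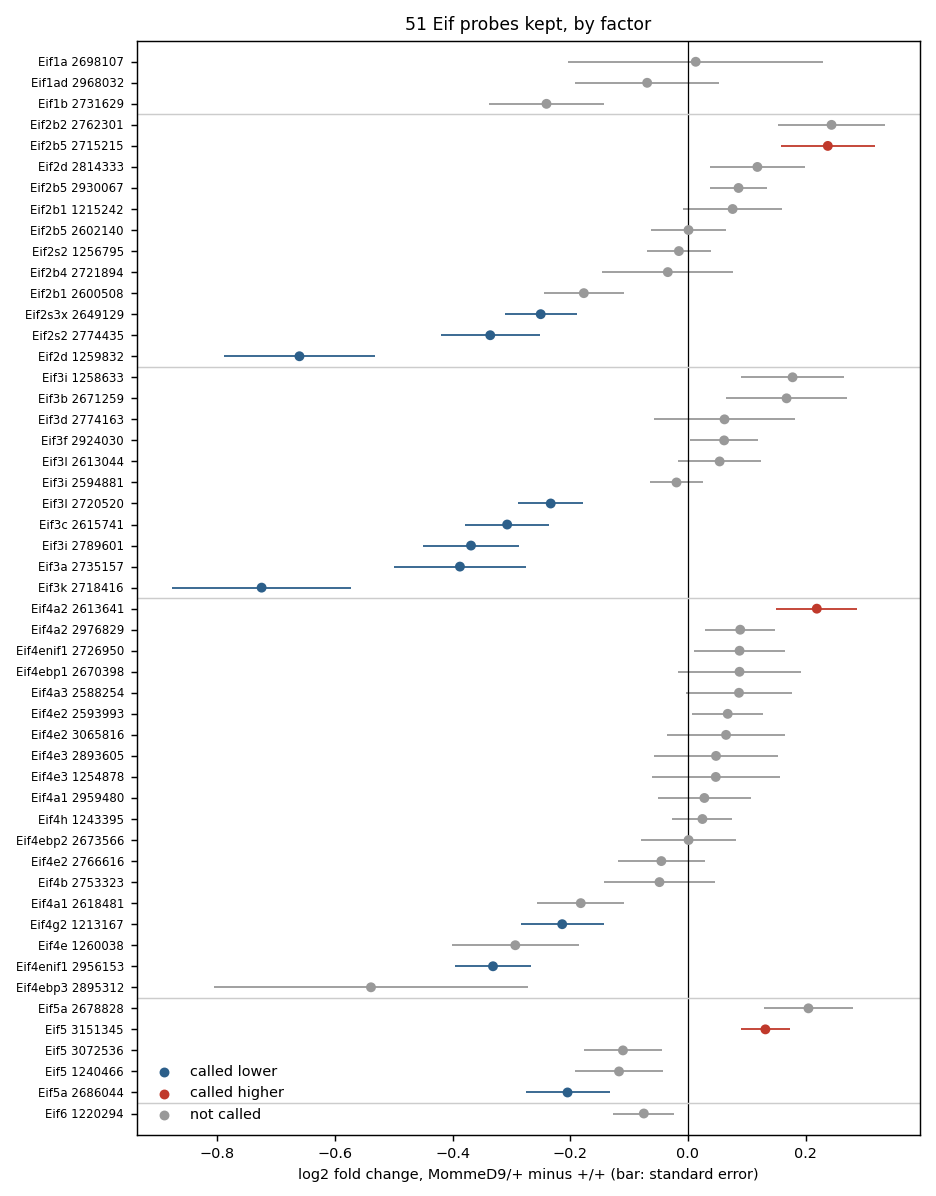
The log2 fold change of each of the 51 kept Eif probes (horizontal axis, Trim28MommeD9/+ minus Trim28+/+) with its standard error, ordered by factor from Eif1 at the top to Eif6 at the bottom. The eIF3 block holds 5 of the 11 lower probes and none of the 3 higher ones, which turn slightly negative under scaling to the median of all probes.

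No kept probe gave a value for several core members. The table held no probe under the symbols Eif1, Eif2s1 and Eif4g1, which are not analysed here. Of the 16 probes that were not kept, 14 were detected on no array: those of Eif1ax, Eif2s3y, Eif3e, Eif3h, Eif3m and Eif5a2, both probes of Eif4e1b and of Eif5b, 2 of the 3 probes of Eif3a, and 1 probe each of Eif3b and Eif4g2. The probe of Eif3j1 and 1 of 3 probes of Eif4e3 were detected on 1 array. An undetected probe does not show that the gene was silent, since Eif3a, Eif3b and Eif4g2 each had another probe that was detected on all 16 arrays.

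The promoters of 6 of the 10 called genes with 1 annotated start are shown. Promoters were read because mRNAs of the translation machinery are known for starting in a stretch of C and T. Through this stretch, the terminal oligopyrimidine tract, mTOR acts on their translation. The lower genes could also be compared on this feature, which did not enter the rule. RefSeq start sites (GRCm38.p6) were given for 33 of the 43 genes, 4 of them with several starts. Each line runs from 50 bases before the annotated start through the 30 bases from the start on, on the gene's strand, and capitals mark the longest run of only C and T that reaches within 20 bases of the start and any CACGTG, the E-box.
Eif3k: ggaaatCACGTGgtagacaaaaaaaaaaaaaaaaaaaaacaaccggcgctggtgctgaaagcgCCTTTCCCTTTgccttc
Eif3l: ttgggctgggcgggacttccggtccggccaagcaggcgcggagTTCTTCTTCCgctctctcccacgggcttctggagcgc
Eif3a: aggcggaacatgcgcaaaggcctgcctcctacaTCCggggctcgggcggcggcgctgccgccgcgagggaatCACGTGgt
Eif2s3x: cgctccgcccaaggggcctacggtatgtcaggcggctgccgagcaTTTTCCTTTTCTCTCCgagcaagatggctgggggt
Eif2d: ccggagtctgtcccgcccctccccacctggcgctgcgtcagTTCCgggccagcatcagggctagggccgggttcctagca
Eif2b5: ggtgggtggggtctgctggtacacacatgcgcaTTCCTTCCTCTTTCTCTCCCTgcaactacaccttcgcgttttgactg
The windows lie at chr7:28981859-28981938 on the minus strand for Eif3k, chr15:79075173-79075252 on the plus strand for Eif3l, chr19:60790664-60790743 on the minus strand for Eif3a, chrX:94212622-94212701 on the minus strand for Eif2s3x, chr1:131153157-131153236 on the plus strand for Eif2d and chr16:20498767-20498846 on the plus strand for Eif2b5. The run of C and T was 11 bases long in Eif3k, 10 in Eif3l, 16 in Eif2s3x and 21 in Eif2b5, and 3 and 4 in Eif3a and Eif2d. In the called genes with 1 start that are not shown, it was 4 in Eif2s2, Eif3c and Eif4a2 and 2 in Eif5. With the annotated start as 0, the 4 longer runs spanned 13 to 23 in Eif3k, -7 to 2 in Eif3l, -5 to 10 in Eif2s3x and -17 to 3 in Eif2b5. A marked run need not begin the mRNA, and whether any is a terminal oligopyrimidine tract was not tested. A run of 9 or more bases was found in 3 of 7 lower genes with 1 start, 1 of 3 higher genes and 1 of 13 genes with no call. Over the kept Eif genes with 1 start the share was 5 of 23 (21.7%), against 14.3% of 22862 promoters of all genes. Of the called genes with 1 start, the longest run belonged to a higher gene, and Eif2d, with the smallest p, had a short one. The letters CACGTG, read over the 300 bases of each promoter, which are the same on both strands, were present in 6 of 23 kept Eif genes (26.1%) and 7.12% of all promoters. They were in 2 of the 7 lower genes (Eif3a and Eif3k), in 4 of the 13 with no call and in 0 of the 3 higher ones.

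Among the factors that place the initiator tRNA, 3 of 5 kept probes were lower, where 12.2% of all kept probes were, and none was higher (0 also at an unadjusted p under 0.05, limma). With presumptive technical pairs the calls of Eif2s2 and Eif2s3x were lost (limma adjusted p of 0.0553 and 0.0664) and that of Eif2d was kept (0.0274). Eif2d encodes a factor that can deliver tRNA to the ribosome without GTP. Its probe ILMN_1259832 had log2 intensities of 4.84 at the lowest, 5.23 at the median and 5.51 at the highest in Trim28MommeD9/+, and of 5.27, 5.94 and 6.29 in Trim28+/+. The overlap came from Trim28+/+ replicate 1 alone, the lowest wild-type array at 5.27, while the other 8 lay at 5.6 or above. The difference was 1.58-fold (log2 fold change -0.66, SE 0.13, limma adjusted p = 0.00221), and -0.06 against Trim28+/+ replicate 1 alone. This probe was dim, detected on 4 of 7 Trim28MommeD9/+ and 9 of 9 Trim28+/+ arrays, and the second Eif2d probe, detected on all arrays, was not called (0.12, adjusted p = 0.3).

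Eif2s2 encodes the beta subunit of eIF2, and its probe ILMN_2774435 read 5.39, 5.49 and 5.91 (lowest, median, highest) in Trim28MommeD9/+ and 5.68, 5.93 and 6.10 in Trim28+/+. The genotypes overlapped, with 4 Trim28MommeD9/+ arrays below every Trim28+/+ array. Its log2 fold change was -0.34 (SE 0.08, limma adjusted p = 0.00904), and -0.09 against Trim28+/+ replicate 1. The other Eif2s2 probe stood at -0.02 (adjusted p = 0.859).

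Eif2s3x encodes the gamma subunit, which binds GTP and the tRNA, and lies on the X chromosome. It read 7.97, 8.05 and 8.25 in Trim28MommeD9/+ and 8.15, 8.33 and 8.56 in Trim28+/+. Trim28+/+ replicate 1 was again the lowest wild-type array, and the other 8 were all above the highest Trim28MommeD9/+ array. This gave a log2 fold change of -0.25 (SE 0.06, limma adjusted p = 0.00815), and -0.07 against Trim28+/+ replicate 1. The closely related copy on the Y chromosome, Eif2s3y, was detected on no array of these male livers, and how far the 2 probes separate the copies was not tested.

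eIF2B, the exchange factor that the integrated stress response blocks, was read by 7 kept probes of 4 genes. Only Eif2b5, the catalytic epsilon subunit, had a called probe. ILMN_2715215 read 7.99, 8.12 and 8.32 in Trim28MommeD9/+ and 7.64, 7.94 and 8.13 in Trim28+/+, so that 3 Trim28MommeD9/+ arrays lay above every wild-type array and 7 wild-type arrays below every Trim28MommeD9/+ array. The log2 fold change was 0.24 (SE 0.08, limma adjusted p = 0.0389), -0.004 against replicate 1 alone and -0.02 under scaling to the median of all probes. The other Eif2b5 probes stood at 0.09 and 0.001, with adjusted p of 0.203 and 0.994. Eif2b2 had as large a value (0.24) that missed the threshold (adjusted p = 0.0576) and was -0.02 under scaling to the median of all probes. Eif2b4 stood at -0.03. The 2 probes of Eif2b1 lay at 0.08 and -0.18, and the second passed without Trim28+/+ replicate 1 or 2 (limma adjusted p from 0.0398 to 0.0476). The Eif2b5 call needed each of 9 arrays, since it was lost when Trim28MommeD9/+ replicate 2, 4, 5, 6 or 7 or Trim28+/+ replicate 6, 7, 8 or 9 was left out (limma adjusted p from 0.051 to 0.0916), and the Eif2b2 value passed without any 1 of Trim28+/+ replicates 1, 2, 3 and 4 (limma adjusted p from 0.0301 to 0.0455).

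The eIF3 complex had the most calls: 5 of 11 kept probes were lower (45.5%) and none was higher (0 also at an unadjusted p under 0.05, limma). Over all kept probes 12.2% were lower, and the median over the 11 eIF3 probes was -0.02, since the 6 probes with no call lay from -0.02 to 0.18. Eif3k, a small peripheral subunit, had the largest called difference of the family. It read 6.26, 6.58 and 6.83 in Trim28MommeD9/+ and 6.43, 7.27 and 7.83 in Trim28+/+. The Trim28+/+ arrays other than replicate 1 lay from 7.12 to 7.83, all above the highest Trim28MommeD9/+ array, whereas replicate 1, at 6.43, was within the Trim28MommeD9/+ range. Its log2 fold change was -0.72 (SE 0.15, limma adjusted p = 0.00318), and against replicate 1 alone the sign turned, to 0.13.

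Eif3i and Eif3c showed smaller differences, with Trim28+/+ replicate 1 again the lowest wild-type array. The probe ILMN_2789601 of Eif3i, a WD-repeat subunit, read 10.5, 10.73 and 10.92 in Trim28MommeD9/+ and 10.78, 11.08 and 11.37 in Trim28+/+, which put the difference at -0.37 (SE 0.08, limma adjusted p = 0.00434). Of the 9 Trim28+/+ arrays, 7 were above every Trim28MommeD9/+ array. The brightest Eif3i probe stood at -0.02 and the remaining probe at 0.18, neither called (limma adjusted p of 0.785 and 0.146). Eif3c, one of the core subunits that bind the other initiation factors, read 7.5, 7.65 and 7.85 in Trim28MommeD9/+ and 7.74, 7.95 and 8.2 in Trim28+/+ (-0.31, SE 0.07, limma adjusted p = 0.00557). Here too 7 of 9 wild-type arrays stood above all 7 Trim28MommeD9/+ arrays. Against Trim28+/+ replicate 1 alone the values were -0.05 for Eif3i and -0.07 for Eif3c.

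Eif3l was one of the 2 lower probes of the family in which the genotypes did not overlap, as 1.14% of all kept probes did in this direction. Its probe ILMN_2720520 read 10.29, 10.43 and 10.47 in Trim28MommeD9/+ and 10.53, 10.6 and 10.86 in Trim28+/+. The nearest wild-type array was replicate 1, at 10.53. Here the log2 fold change was -0.23 (SE 0.06, limma adjusted p = 0.00663), and -0.12 against replicate 1. The other Eif3l probe stood at 0.05 (limma adjusted p = 0.61). Eif3a, the largest subunit and part of the core, was lower at the 1 of its 3 probes that was detected, with 7.85, 8.16 and 8.6 in Trim28MommeD9/+ and 8.3, 8.56 and 8.93 in Trim28+/+ (-0.39, SE 0.11, limma adjusted p = 0.0188, and -0.19 against replicate 1). Only 3 wild-type arrays lay above every Trim28MommeD9/+ array, and the call was lost with presumptive technical pairs (limma adjusted p = 0.0666). Eif3b, Eif3d and Eif3f, with log2 fold changes of 0.17, 0.06 and 0.06, were not called.

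**Figure D2:**
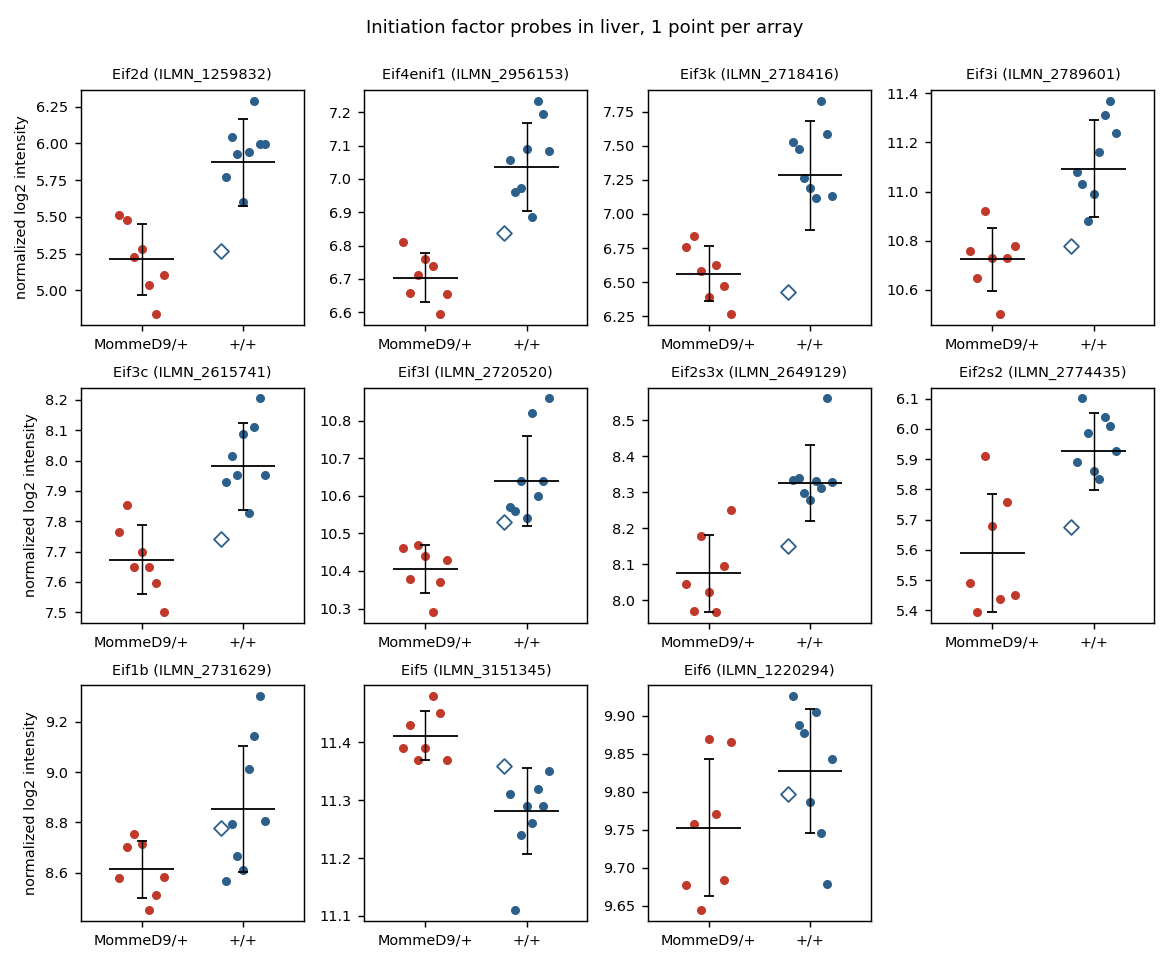
Normalized log2 intensity (vertical axis, a separate scale in each panel) on each of the 7 Trim28MommeD9/+ and 9 Trim28+/+ arrays for the 8 Eif probes with the smallest p and the leading probes of Eif1, Eif5 and Eif6, with the mean and SD, and Trim28+/+ replicate 1 as an open diamond. In Eif2d, Eif3k, Eif3i, Eif3c, Eif2s3x and Eif2s2 the diamond lies within the Trim28MommeD9/+ range.

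Of the start-site factors, Eif1b came closest to the threshold. It read 8.45, 8.58 and 8.75 in Trim28MommeD9/+ and 8.57, 8.79 and 9.3 in Trim28+/+, and 6 wild-type arrays lay above all Trim28MommeD9/+ arrays. The log2 fold change was -0.24 (SE 0.10, limma adjusted p = 0.0793, and 0.0464 without Trim28+/+ replicate 2). Eif1ad, a relative of eIF1A, stood at -0.07 (adjusted p = 0.713). Eif1a itself, at 0.01 (adjusted p = 0.97), had the widest spread of the 3, with an SD of 0.56 in Trim28MommeD9/+ and 0.41 in Trim28+/+.

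None of the 6 kept probes of cap-binding proteins was called by limma (1 had an unadjusted p under 0.05). The only probe of Eif4e, which binds the cap, was dim (detected on 2 of 7 Trim28MommeD9/+ and 9 of 9 Trim28+/+ arrays) and read 4.70, 5.11 and 5.39 against 5.05, 5.36 and 5.58, a log2 fold change of -0.29 that missed the threshold (adjusted p = 0.0554 from limma) and was 0.01 against Trim28+/+ replicate 1. It passed without Trim28MommeD9/+ replicate 1 or 7 or Trim28+/+ replicate 1 (limma adjusted p from 0.027 to 0.0336). The 3 probes of Eif4e2 and 2 of Eif4e3, which encode cap-binding relatives, lay from -0.05 to 0.07. Among proteins that bind eIF4E, Eif4ebp1 (0.09) and Eif4ebp2 (0.001), the 4E-binding proteins that mTOR phosphorylates, were not called.

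Eif4enif1 encodes 4E-T, which takes eIF4E into the nucleus and to processing bodies. Its probe ILMN_2956153 read 6.59, 6.71 and 6.81 in Trim28MommeD9/+ and 6.84, 7.06 and 7.23 in Trim28+/+. The genotypes did not overlap, and the lowest wild-type array was replicate 1, at 6.84, close above the highest Trim28MommeD9/+ array. Its log2 fold change was -0.33 (SE 0.07, limma adjusted p = 0.00226), and -0.14 against replicate 1. The other Eif4enif1 probe stood at 0.09 (adjusted p = 0.425).

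Of the 7 kept probes of the eIF4A helicases and their cofactors, 1 was higher and 0 were lower (1 lower at an unadjusted p under 0.05, limma). Eif4a2, a paralogue of Eif4a1, was higher at ILMN_2613641, with 10.11, 10.25 and 10.33 in Trim28MommeD9/+ against 9.71, 10.07 and 10.3 in Trim28+/+ (0.22, SE 0.07, limma adjusted p = 0.0292). The highest wild-type array was replicate 1, and the value against it was -0.06. This call was lost without Trim28MommeD9/+ replicate 1, 2 or 5 (limma adjusted p from 0.0519 to 0.0601), and the value was -0.02 under scaling to the median of all probes. The second Eif4a2 probe stood at 0.09 (adjusted p = 0.283). Eif4a1 stood at 0.03 and -0.18 at its 2 probes, the second of which passed without Trim28MommeD9/+ replicate 6 (adjusted p = 0.0344). Eif4a3, a helicase of the exon junction complex, and the helicase cofactors Eif4b and Eif4h lay at 0.09, -0.05 and 0.02. Eif4g2, a scaffold without the part that binds eIF4E, read 6.97, 7.05 and 7.11 in Trim28MommeD9/+ and 7.02, 7.33 and 7.48 in Trim28+/+ (-0.21, SE 0.07, limma adjusted p = 0.0355). Here replicate 1, at 7.35, lay with the other wild-type arrays, and the value against it was -0.30. Leaving out Trim28MommeD9/+ replicate 2, 3, 5, 6 or 7 or Trim28+/+ replicate 4, 5, 6 or 9 ended the call (limma adjusted p from 0.0529 to 0.067).

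Eif5, which makes eIF2 hydrolyse its GTP, had 3 kept probes and 1 call. ILMN_3151345 read 11.37, 11.39 and 11.48 in Trim28MommeD9/+ and 11.11, 11.29 and 11.36 in Trim28+/+. It was the 1 higher Eif probe whose genotypes did not overlap (1.19% of all kept probes), by a narrow margin from Trim28+/+ replicate 1, at 11.36. The log2 fold change was 0.13 (SE 0.04, limma adjusted p = 0.0303), 0.05 against replicate 1 and -0.08 under scaling to the median of all probes. It was lost without Trim28MommeD9/+ replicate 2, 5 or 6 (limma adjusted p from 0.0547 to 0.0684). The other Eif5 probes stood at -0.12 and -0.11, neither called.

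Eif5a, whose product carries hypusine and acts mainly in elongation despite its name, was lower at ILMN_2686044 (-0.20, SE 0.07, limma adjusted p = 0.0459). This probe read 10.07, 10.11 and 10.17 in Trim28MommeD9/+ and 10.02, 10.36 and 10.54 in Trim28+/+, so that the Trim28MommeD9/+ arrays lay close together within the wild-type range. The value against Trim28+/+ replicate 1 was -0.02, and the call was kept without any 1 of Trim28+/+ replicates 1, 6 and 9 and was lost without any 1 of the other 13 arrays (limma adjusted p from 0.0577 to 0.0832). The second Eif5a probe had nearly the opposite value (0.20, adjusted p = 0.0585 from limma), and passed without Trim28MommeD9/+ replicate 3 or Trim28+/+ replicate 1 or 4 (limma adjusted p from 0.0233 to 0.0494). Eif6, which keeps the large ribosomal subunit from joining early, read 9.64, 9.76 and 9.87 in Trim28MommeD9/+ and 9.68, 9.84 and 9.93 in Trim28+/+. The genotypes overlapped, with 2 Trim28MommeD9/+ arrays below every Trim28+/+ array and 4 Trim28+/+ arrays above every Trim28MommeD9/+ array (-0.07, SE 0.05, limma adjusted p = 0.303).

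Probes of the same gene often moved apart. Of the 34 kept genes, 13 had more than 1 kept probe (30 probes in all), and the level of each further probe relative to the brightest probe of its gene was compared between genotypes in a limma fit over all 2386 such ratios. Of the 17 Eif ratios, 10 were called, in 9 genes, which were Eif2b5, Eif2d, Eif2s2, Eif3i, Eif3l, Eif4a1, Eif4enif1, Eif5 and Eif5a. Over all genes 23.8% of the ratios were called. The widest was Eif2d, whose log2 ratio of ILMN_1259832 to ILMN_2814333 was -3.60 to -3.01 in Trim28MommeD9/+ and -3.09 to -1.85 in Trim28+/+ (difference -0.78, SE 0.15, limma adjusted p = 0.00176). In Eif5a the ratio of the further to the brightest probe rose from a median of -0.42 in Trim28+/+ to 0.09 in Trim28MommeD9/+ (difference 0.41, SE 0.09, limma adjusted p = 0.00277), and in Eif4enif1 the difference was 0.42 (adjusted p = 0.0059 from limma). In 8 of these 9 genes 1 probe had a call, lower or higher, that no other probe of the gene shared, and Eif4a1 had none called. Eif2b1, Eif4a2, Eif4e2 and Eif4e3 had no called ratio. With the background sets as a block 0 of the 17 ratios were called by limma and 1 had an unadjusted p under 0.05.

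**Figure D3:**
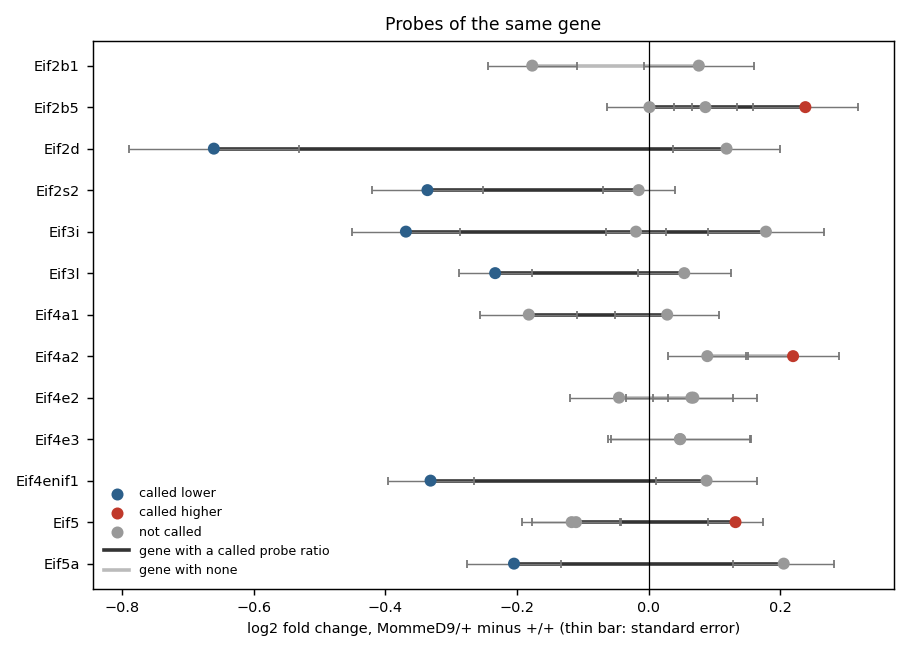
The log2 fold change (horizontal axis, Trim28MommeD9/+ minus Trim28+/+, with standard error) of every kept probe in the 13 Eif genes with more than 1, joined by a line that is dark where a ratio between probes was called. In Eif2d, Eif3i, Eif3l, Eif4enif1 and Eif5a a probe called lower stands beside a probe above 0 that was not called.

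Trim28+/+ replicate 1 read like the Trim28MommeD9/+ arrays for most called members. It lay within the Trim28MommeD9/+ range for 10 of the 14 called probes, and on a scale from 0 (the mean of the other Trim28+/+ arrays) to 1 (the mean of Trim28MommeD9/+) its position had a median of 0.779, from -0.47 (Eif4g2) to 1.22 (Eif4a2). This position was not worked out for called probes outside the family, so it cannot be read as a trait of the Eif genes. Against replicate 1 alone, the values of Eif3k (0.13), Eif2b5 (-0.004) and Eif4a2 (-0.06) turned sign. The other 11 of the 14 called Eif probes kept their sign, as did 1789 of the 2400 called among all kept probes. Of the 3 probes with an unadjusted p under 0.05 in that fit, none was a called member: Eif4ebp3 (-1.47, adjusted p = 0.569 from limma), Eif1ad (-0.55, adjusted p = 0.644) and Eif5 ILMN_1240466 (-0.33, adjusted p = 0.692). With 1 wild-type array in the low set, these values rest on that array.

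**Figure D4:**
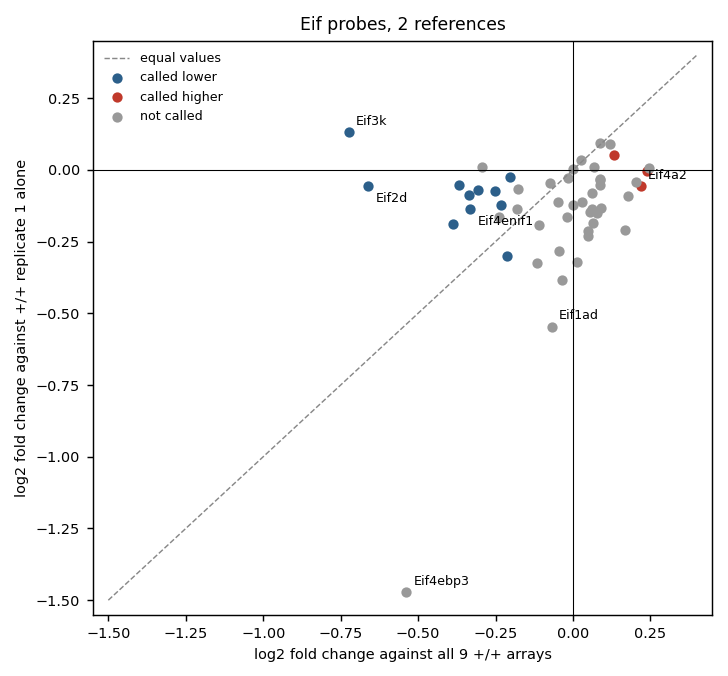
Each of the 51 kept Eif probes by its log2 fold change against all 9 Trim28+/+ arrays (horizontal axis) and against Trim28+/+ replicate 1 alone (vertical axis), with the line of equal values dashed. The called probes gather near 0 on the vertical axis, with Eif3k at 0.13 and Eif2d at -0.06, and Eif4ebp3 lies apart at -1.47.

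Other parts of the translation machinery were read from 3 gene lists, beside which 12.2% of all kept probes were lower and 11.1% higher, with a median of 0.05. Of 20 kept probes for elongation, termination and poly(A) binding, 5 were lower and 0 higher (1 higher at an unadjusted p under 0.05, limma), with a median of 0.01. They were Pabpc1, the poly(A)-binding protein that touches eIF4G (-1.24), 2 of 3 probes of the elongation factor gene Eef1b2 (-1.16 and -0.66), Paip2, an inhibitor of poly(A)-binding protein (-1.12), and Abce1, which recycles ribosomes (-0.35). Against Trim28+/+ replicate 1 these were -0.23, -0.03, 0.001, -0.13 and 0.02. The other kept Pabpc1 probe stood at 0.15 and was not called (limma adjusted p = 0.439). Of 14 kept probes for the eIF2 kinases and the integrated stress response, 6 were lower (42.9%) and 1 higher (7.14%), with a median of -0.18. Asns, which makes asparagine, was lower (-0.61, and -0.51 against replicate 1), as were Eif2ak3, the kinase PERK (-0.59, -0.18), and Ppp1r15b, which returns phosphorylated eIF2 to its active state (-0.30, -0.58). The Eif2ak3 probe was detected on 4 of 7 Trim28MommeD9/+ and 9 of 9 Trim28+/+ arrays. Atf4, the transcription factor of this response, was detected on none of the 7 Trim28MommeD9/+ arrays and on 6 of 9 Trim28+/+ arrays. Its means differed by at least 1.68-fold (adjusted p = 0.0403 from limma), a figure that leaves out the Trim28+/+ SD of 1.16. It passed the filter only through Trim28+/+ arrays, so its place among the 6 lower probes carries little weight. Its measured mean log2 intensities were 4.79 and 5.94, and its difference from replicate 1 was -0.16. Atf5, a related transcription factor, was lower (-0.46) and turned to 0.14 against replicate 1, and Nck1, an adaptor protein, was lower at -0.45 and -0.30. The higher probe was that of Trib3, a pseudokinase induced by this response (0.68, and 0.65 against replicate 1). It was detected on 7 of 7 Trim28MommeD9/+ and 4 of 9 Trim28+/+ arrays. Of 19 kept probes for mTORC1 and cap-binding control, 2 were lower (10.5%) and 2 higher (10.5%), shares near those of all kept probes, with a median of 0.06. Mtor (0.26, and -0.001 against replicate 1) and Tsc1 (0.46, and 0.27) were higher. The Tsc1 probe was detected on 4 of 7 Trim28MommeD9/+ and 2 of 9 Trim28+/+ arrays. Pdcd4, which inhibits eIF4A, was lower (-0.51) but at 0.08 against replicate 1. Also lower was 1 probe of Ncbp2, a gene of the nuclear cap-binding complex. This probe had no detected signal in Trim28MommeD9/+. It passed the filter only through Trim28+/+ arrays. Its means differed by at least 1.47-fold, with Trim28MommeD9/+ lower, and its measured log2 difference from replicate 1 was -0.08. The other kept Ncbp2 probe, detected on 5 of 7 Trim28MommeD9/+ and 6 of 9 Trim28+/+ arrays, stood at -0.03 and was not called (limma adjusted p = 0.82).

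The 5 probes outside the family whose values ran most like those of Eif2d ILMN_1259832 over the 16 arrays were those of Dus1l (Pearson r 0.957), Tmem254a (0.956), Tcp1 (0.953), Pkig (0.952) and Tmed2 (0.95). The points share the genotypes and the background sets. Between arrays of a genotype the median SD of the Eif probes was 0.114 in Trim28MommeD9/+ and 0.166 in Trim28+/+, and that of all kept probes, which was not matched for intensity, was 0.146 and 0.191.

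Eif1a had the largest SD of the family in Trim28MommeD9/+ and Eif4ebp3 in Trim28+/+. Eif1a fell into 2 levels that crossed the genotypes. It read 8.71 to 9.02 on 7 arrays (Trim28MommeD9/+ replicates 1, 2 and 5 and Trim28+/+ replicates 2, 3, 4 and 7) and 9.53 to 9.90 on the other 9, with a gap of 0.51 between. A gap as wide, with at least 3 arrays on each side, was found for 189 of the 10291 kept probes. The second Eif probe among them was that of Eif4ebp3, a 4E-binding protein, which read 5.35 to 5.72 in Trim28MommeD9/+ and 4.91 to 6.96 in Trim28+/+. Its SD was 0.13 in Trim28MommeD9/+ and 0.78 in Trim28+/+, with 6 wild-type arrays above and 3 below all Trim28MommeD9/+ arrays (log2 fold change -0.54, adjusted p = 0.148 from limma).

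**Figure D5:**
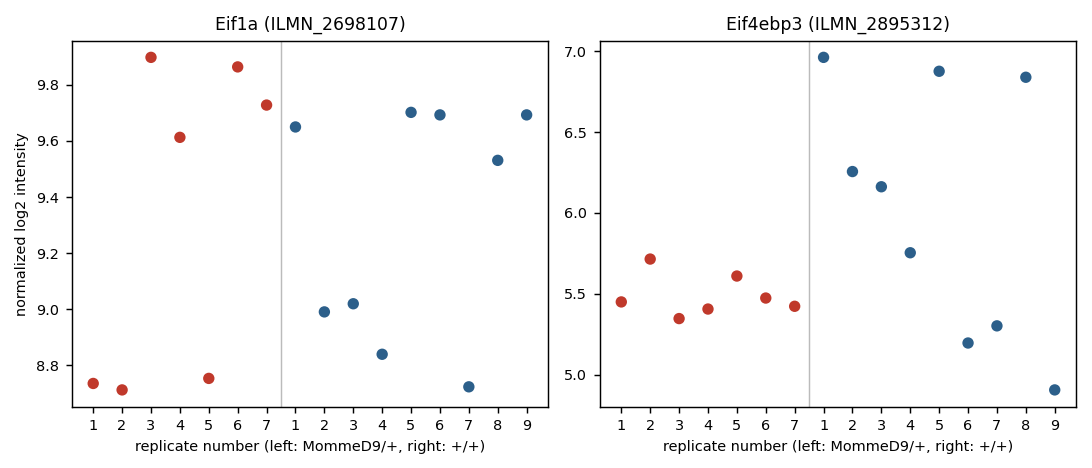
Normalized log2 intensity of Eif1a (left) and Eif4ebp3 (right) on each array, by replicate number, with Trim28MommeD9/+ left and Trim28+/+ right of the grey line. Eif1a shows a lower level on 3 Trim28MommeD9/+ and 4 Trim28+/+ arrays, and Eif4ebp3 spreads from 4.91 to 6.96 over the Trim28+/+ arrays only.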

How the data were processed

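Liver RNA was hybridized by the authors to Illumina MouseRef-8 v2.0 BeadChips and compiled in BeadStudio, and GenomeStudio was used for their analysis (no version is given in the sources used here). For every probe on an array the authors deposited a raw intensity, with neither background subtraction nor normalization. Beside it stands the deposited detection p-value, small where the signal exceeded the negative control beads. A further deposited table holds scaled intensity values, in each array a straight line of the first, and served as an alternative.

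After removal of 833 blank lines, 25697 probes remained, 23978 with a single gene symbol, 23962 of them updated through the Entrez identifier. Intensities were processed in R 4.3.3 with the neqc function (limma 3.58.1, offset 16, which understates the change of dim probes), and 10291 probes detected (p under 0.01) on 3 or more of 16 arrays were compared between genotypes with limma (intensity trend, Benjamini-Hochberg adjustment over all of them, threshold 0.05). Fold changes are Trim28MommeD9/+ minus Trim28+/+ on the log2 scale. The number of arrays limits the precision. Ratios between probes of a gene were fitted with limma without the intensity trend, a test added after the data were seen. The fit per probe was tested on simulated data with known changes. Promoter windows came from RefSeq (GRCm38.p6), and the array files name no build. Other steps ran in pandas 2.3.3, NumPy 2.4.6, NetworkX 3.6.1 and Matplotlib 3.10.9 under Python 3.11.15.

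Members named are every called Eif probe, a fixed list of core factors, and every gene with more than 1 kept probe. The lowest, median and highest values are given for the 8 smallest p and the leading probe of each other factor, and in addition for all called probes and Eif4e. Eif1a, Eif1b, Eif1ad, Eif2b2, Eif2b4, Eif4ebp3 and the remaining probes with no call were named after their values were seen. Members and lists were chosen with earlier results of these data known. Alternatives were other normalizations, the authors' values, other filters, 1 probe per gene, array weights, no intensity trend, a stricter threshold, blocks for replicate number, presumptive technical pairs and background sets, and each array left out.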

Additional observations from a re-analysis of the deposited data

Results flagged for a closer look

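In 3 of 88 groups of arrays tested for a far value, over Trim28 and 43 named Eif probes, an array lay far from the rest of its genotype by Dixon's criterion, which chance alone meets in about 1 group of 20. For Eif2s3x, Trim28+/+ replicate 8 was the highest at 8.561, with the next array at 8.341. For Eif4e2 ILMN_2766616, Trim28+/+ replicate 7 was the lowest at 6.148, with the next at 6.458. For Eif5 ILMN_3151345, Trim28+/+ replicate 3 was the lowest at 11.11, with the next at 11.24. The call of Eif2s3x and that of Eif5 were both kept without the far array.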

How the results depend on the processing

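Counts of Eif probes called lower and higher, 11 and 3, became 26 and 0 with scaling to the median of all probes, 6 and 0 with presumptive technical pairs as a random block, and 0 and 0 with a block for the background sets. With the replicate block they were 5 and 0 and the ratio calls fell to 3, but same-numbered arrays are not known to be related (correlations of deviations from -0.386 to 0.469, with 2 of 7 best with their own number), so the numbers do not pair the arrays. The count of higher probes was 0 with no filter on dim probes, 0 at an adjusted p under 0.01, and 1 with 1 probe per gene. Of all probes tested, 691 of 25697 were higher with no filter and 761 of 7302 with 1 probe per gene. Over these settings the probes higher at an unadjusted p under 0.05 in limma were 5 without the filter and with pairs, and 2 with the replicate block. Leaving out each array gave 9 to 13 lower, 0 to 5 higher and 10 to 12 called ratios, the 0 arising without Trim28MommeD9/+ replicate 2 or 5, 1 without replicate 6, and 5 without Trim28+/+ replicate 1 or 4. Over all kept probes the same fits called 1023 to 1443 lower and 771 to 1462 higher. The background-set block left 0 ratio calls. The Trim28 value, -0.49 to -0.39 with an array left out, was -0.77 with that block (adjusted p = 0.262 from limma). Scaling to the median of all probes turned Eif2b5 ILMN_2715215 to -0.0206, Eif2b5 ILMN_2602140 to -0.26 (adjusted p = 0.0414), Eif4ebp2 to -0.24 (adjusted p = 0.0292), Eif5 ILMN_3151345 to -0.0831 and Eif4a2 ILMN_2613641 to -0.0168. Further probes with no call turned sign under this scaling, among them Eif2b2 (0.24 to -0.02) and Eif5a ILMN_2678828 (0.20 to -0.04). The background block turned Eif3k to 0.13, Eif2b5 ILMN_2715215 to -0.0043 and Eif4a2 ILMN_2613641 to -0.0565. The cause was not tested. The calls of Eif2d, Eif3i, Eif3k and Eif4enif1 were lost with the background block and with no other alternative run for them, those of Eif3c and Eif3l also with the replicate block, that of Eif2s2 also with the pairs, and those of Eif2s3x and Eif3a with both, and that of Eif3a also at an adjusted p under 0.01. The called probes of Eif2d, Eif2s2 and Eif3i are not the brightest of their gene and have no value with 1 probe per gene. Of 1187 other values over 43 probes, 1003 kept their direction and side of the threshold.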

Other observations

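Each of the 7 presumptive technical pairs of arrays, matched within a genotype by their likeness over all kept probes, lay on 1 side of the gap in Eif1a.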
